A study of Mus musculus with 2 samples.

Results

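The receptors for opioid and tachykinin peptides were followed through single-nucleus RNA-seq of the mouse brainstem. The 6 genes were listed by name and not by a rule on measured values. Earlier results of these data were known when they were chosen. All 6 were present among the 25556 genes of the count table. They are 4 opioid receptors (*Oprm1*, *Oprd1*, *Oprk1* and *Oprl1*) and 2 tachykinin receptors (*Tacr1* and *Tacr3*). Brainstem came from untreated female C57Bl6 mice at postnatal day 41. The WT library came from a wild-type littermate, and the HET library from a mouse heterozygous for the *Scn1a* A1783V missense allele (*Scn1a* A1783V/WT), a model of Dravet syndrome. HETs were produced by crossing males with the floxed allele to Sox2-Cre females, whose Cre acts in the early embryo, so the allele was recombined throughout the body rather than in a chosen cell type. There was 1 library per genotype, so a difference between WT and HET has no replicate check, and genotype, animal and library cannot be told apart. No test or p-value is given between them.

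Opioid receptors couple to Gi/o proteins, which open GIRK potassium channels, close presynaptic calcium channels and inhibit adenylyl cyclase, and so quiet the neurons that carry them. *Oprm1* encodes the µ receptor, through which morphine and fentanyl depress breathing, *Oprd1* the δ receptor, *Oprk1* the κ receptor for dynorphin, and *Oprl1* the nociceptin receptor, which binds classical opioids poorly. Tachykinin receptors couple to Gq and phospholipase C and excite neurons. *Tacr1* encodes the NK1 receptor for substance P, a known marker of rhythm-generating neurons of the preBötzinger complex, and *Tacr3* encodes the NK3 receptor for neurokinin B.

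Receptors of a family are close in coding sequence, so the transcripts were compared to see how much sequence they share. In GRCm38, *Oprm1* lies on chr10:6758506-7038198 (plus strand, 279.7 kb), *Oprd1* on chr4:132110726-132144486 (minus strand, 33.8 kb), *Oprk1* on chr1:5588466-5606131 (plus strand, 17.7 kb) and *Oprl1* on chr2:181715016-181720985 (plus strand, 5.97 kb). *Tacr1* lies on chr6:82402334-82560104 (plus strand, 157.8 kb) and *Tacr3* on chr3:134829007-134934579 (plus strand, 105.6 kb). The windows below are coding exon sequence from the GENCODE vM21 transcripts, written 5′ to 3′ in transcript sense. Capitals mark the stretch that every listed member of the family shares letter for letter. In the opioid receptors it lies in the third transmembrane helix, and these windows cover chr10:6829015-6829079 (exon 2 of 4), chr4:132117274-132117338 (exon 2 of 3), chr1:5598720-5598784 (exon 3 of 4) and chr2:181718507-181718571 (exon 3 of 4), in the order shown:
*Oprm1*: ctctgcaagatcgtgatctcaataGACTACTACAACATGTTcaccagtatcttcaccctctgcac
*Oprd1*: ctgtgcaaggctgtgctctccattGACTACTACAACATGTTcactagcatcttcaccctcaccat
*Oprk1*: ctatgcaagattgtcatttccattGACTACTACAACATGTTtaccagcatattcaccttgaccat
*Oprl1*: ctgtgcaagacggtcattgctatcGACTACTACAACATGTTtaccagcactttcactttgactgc
In the tachykinin receptors the shared stretch lies in the seventh transmembrane helix, at chr6:82554983-82555056 (exon 5 of 6) and chr3:134930009-134930082 (exon 4 of 5):
*Tacr1*: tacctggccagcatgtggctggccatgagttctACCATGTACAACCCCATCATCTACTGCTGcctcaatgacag
*Tacr3*: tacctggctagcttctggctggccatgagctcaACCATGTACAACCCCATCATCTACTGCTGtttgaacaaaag

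The stretch shared by all 4 opioid receptors was 17 bases and the one shared by the tachykinin receptors 29 bases. Within these windows *Oprm1* was 81.5% identical to *Oprd1* and 70.8% identical to *Oprl1*, and *Tacr1* was 85.1% identical to *Tacr3*. The longest run that any pair within a family shared anywhere in the transcripts was 25 bases for the opioid receptors (*Oprk1* and *Oprl1*) and 29 for the tachykinin receptors, against reads of 150 bases. The 6 genes lie on 6 chromosomes, and of them *Oprm1* alone overlaps other annotated genes. *Ipcef1* (chr10:6885796-7052478, minus strand) overlaps 152.4 kb of *Oprm1*. The predicted gene *Gm10945*, also on the minus strand, overlaps the start of *Oprm1*. Whether the counting used strand is not given in the sources used here, so *Ipcef1* is reported beside *Oprm1*.

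The libraries held 9259 WT nuclei with 70301390 unique molecular identifiers (UMIs, each standing for 1 captured RNA molecule) and 9022 HET nuclei with 66176778 UMIs. The authors assigned nuclei to 16 clusters, 9 of them neuronal, and to 34 finer subclusters. Median depth was 7729 UMIs in WT and 8390 in HET for nuclei of neuronal clusters, and 2778 and 2934 for the others. The libraries shared 23 cell barcodes. *Scn1a* itself was counted at 380.2 CPM (counts per 1000000 UMIs) in WT and 420.4 in HET, but the allele changes a codon and cannot be checked from counts. Levels are given as CPM of the UMIs summed over nuclei, with exact 95% Poisson intervals, and WT to HET differences as the log2 ratio of CPM with an exact 95% interval. All intervals cover counting error only. CPM is not corrected for gene length, and no order of levels between the receptors is drawn from it.

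To determine where the receptors were expressed, levels were compared among clusters. All 6 were higher in neuronal clusters than in non-neuronal clusters in both libraries. The share of all genes with that direction is not given here, so nothing particular to the receptors is drawn from the count. The log2 ratio of neuronal over non-neuronal CPM was 3.16 in WT and 3.06 in HET for *Oprd1*, and 2.98 and 3.13 for *Tacr1*. It was 2.40 and 2.00 for *Oprm1*, 2.41 and 2.32 for *Tacr3*, and 2.00 and 2.07 for *Oprk1*. *Oprl1* showed the smallest contrast of the 6, at 0.94 in WT and 1.17 in HET. For scale, the neuronal splicing factor gene *Rbfox3* gave log2 ratios of 2.48 in WT and 1.97 in HET on the same comparison, and the vesicular glutamate transporter gene *Slc17a6* gave 0.60 and 0.68, so neuronal transcripts were counted in non-neuronal nuclei as well. In the text below, nuclei called "by both labels" carry a cluster name and a second, reference-based label from the authors that name the same cell type.

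Most neuronal nuclei carried a UMI of at least 1 of the 6 receptors. The share was 60.3% in WT and 65.3% in HET, against 7.16% and 8.63% of non-neuronal nuclei by both labels. Over both libraries 40.2% of neuronal nuclei had UMIs of exactly 1 receptor gene, 17.3% of 2, 4.47% of 3 and 0.686% of 4 or more. *Oprm1* was detected in 40.0% of neuronal nuclei, *Oprl1* in 14.9%, *Oprd1* in 12.1%, *Tacr1* in 11.5%, *Oprk1* in 7.43% and *Tacr3* in 5.07%. These shares follow depth: with every nucleus thinned to 1000 UMIs, the expected share was 9.41% for *Oprm1* and 0.915% to 1.84% for the other 5. In oligodendrocytes by both labels, at a median of 2807 UMIs against 8055 in neuronal nuclei, the thinned share was 0.98% for *Oprm1*, 0.86% for *Oprl1* and between 0.17% and 0.22% for the remaining 4.

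**Figure D1:**
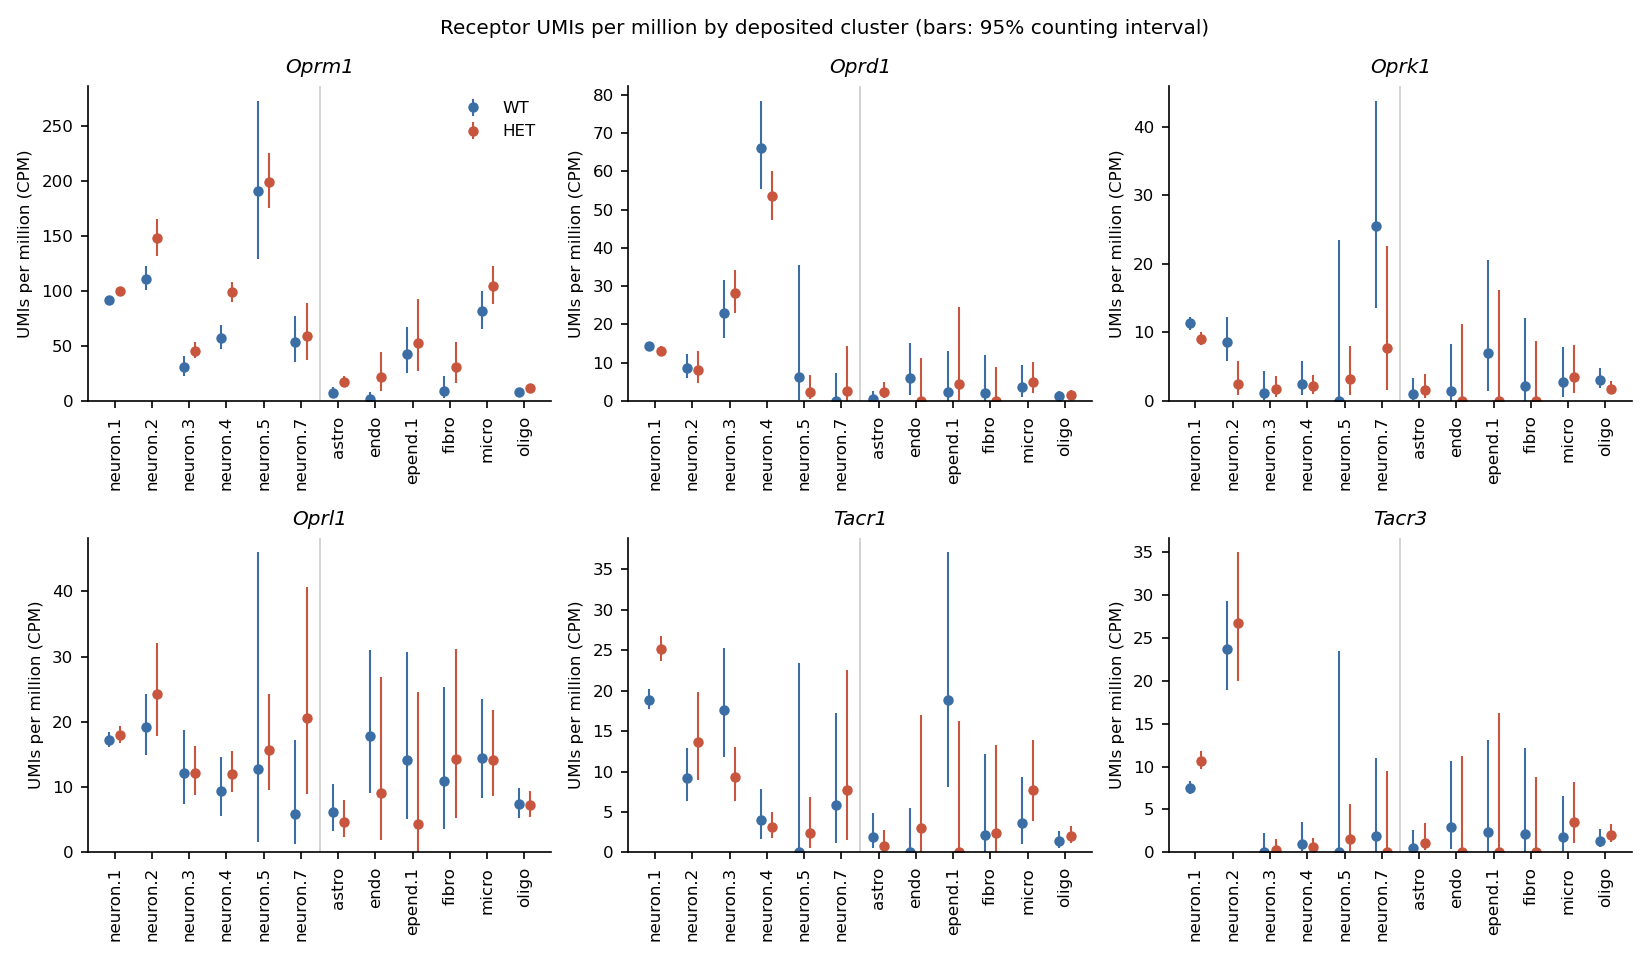
Level of each receptor (CPM, y axis) in the 12 clusters that had 30 or more nuclei per library (x axis), with WT and HET points and exact 95% Poisson bars that cover counting error only. *Oprm1* was spread over most neuronal clusters and the microglia cluster, *Oprd1* peaked in neuron.4 and *Tacr3* in neuron.2. The neuron.8 cluster, where *Tacr1* reached 59.8 CPM, is not drawn because HET had 9 of its nuclei.

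Among clusters with 30 or more nuclei per library *Oprm1* was highest in neuron.5 (190.7 CPM in WT, 198.9 in HET), then in neuron.2 (111 and 147.6), neuron.1 (95.3 over both libraries), the microglia cluster (81.5 and 104.5) and neuron.4 (57.3 and 98.6). Over both libraries the counting intervals of neuron.1, the microglia cluster and neuron.4 overlapped. Levels were 41.0 CPM in neuron.3, 12.7 in astrocytes and 10.5 in oligodendrocytes. The neuron.5 cluster carries the cerebellar granule cell markers *Gabra6* at 376 CPM, *Fat2* at 183 and *Cbln3* at 66.9, and 332 of its 374 nuclei came from HET. Among neuronal subclusters the highest levels lay in subcluster 24, a group of 119 nuclei within neuron.1 led by *Cdh3* and *Ndnf*, and in subcluster 15, which makes up most of neuron.5. Over both libraries *Oprm1* was at 253 CPM in subcluster 24 (226 to 282) and 245 in subcluster 15 (215 to 278), which did not differ beyond counting error. In subcluster 24 it was 272.3 CPM in WT and 222.5 in HET and was detected in 77.3% of nuclei, and in subcluster 15 it was 198 CPM in WT and 252 in HET. Subcluster 24 carried the inhibitory markers *Gad1*, *Gad2*, *Slc32a1* and the glycine transporter gene *Slc6a5* at 497 CPM in sum, and the glutamatergic markers at 13.2. In subcluster 9 of neuron.1, led by *Pdzd2* and *Sall3*, *Oprm1* was 164 CPM in WT and 171 in HET.

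The microglia cluster was mixed. Of its 405 nuclei, 108 were labelled microglia by the second label too (41 WT, 67 HET). Subcluster 18, with 185 nuclei, had the second label of neurons for all of them, and 80 of the 88 nuclei of subcluster 28 had that of oligodendrocytes. In the 108 nuclei by both labels *Oprm1* was higher than in neurons. There were 95 *Oprm1* UMIs, 39 in WT and 56 in HET, which gave 422 CPM (95% interval 341 to 515). The level was 476 CPM in WT against 85.8 in WT neuronal clusters, and 390.3 in HET against 99.6. The log2 ratio of neuronal clusters over these microglia was -2.47 (-2.93 to -1.98) in WT and -1.97 (-2.35 to -1.56) in HET. *Oprm1* was detected in 45.4% of the microglia (exact binomial interval 35.8% to 55.2%) at a median of 1932.5 UMIs. Thinned to 1000 UMIs the share was 30.5%, against 9.41% of neuronal nuclei. No nucleus held more than 5 *Oprm1* UMIs.

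The other 5 receptors were near the detection limit in the same nuclei, with 0 UMIs of *Oprd1*, 1 each of *Oprk1*, *Oprl1* and *Tacr1*, and 2 of *Tacr3*. For *Oprd1*, 0 UMIs allows a level of up to 13.3 CPM (3 counts over these nuclei), and the exact 95% interval reaches 16.4 CPM, close to its neuronal level, so a lower level of *Oprd1* in microglia was not detectable at this depth. The microglial receptor gene *Csf1r* stood at 865 CPM. Neuronal transcripts were present at *Rbfox3* 71.0, *Snap25* 182 and *Syt1* 155 CPM, below their levels in neuronal clusters of 257, 636 and 1331 CPM. On 7 WT and 5 HET UMIs, *Slc17a6* was 85.5 CPM in WT microglia against 73.6 in neuronal clusters, and 34.8 against 83.3 in HET. *Slc32a1*, from 5 and 2 UMIs, was 61.1 against 43.3 in WT and 13.9 against 25.4 in HET. In the 54 microglia without a UMI of *Rbfox3*, *Snap25* or *Syt1*, *Oprm1* was 440.3 CPM (322 to 587) and was detected in 48.1% of nuclei. In oligodendrocytes chosen in the same way it was 8.91 CPM, and in astrocytes 9.40 CPM. Without the 5% of nuclei with the highest doublet scores the microglial level was 428 CPM in 106 nuclei.

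*Ipcef1*, the gene on the opposite strand, was also higher in microglia. It had 26 UMIs there and stood at 115 CPM (75.4 to 169), against 30.2 CPM in neuronal clusters and 2.13 in oligodendrocytes. There were 3.65 *Oprm1* UMIs per *Ipcef1* UMI in microglia (2.35 to 5.88) and 3.05 in neuronal clusters (2.94 to 3.17). Of the 108 microglia, 36 had UMIs of *Oprm1* alone, 9 of *Ipcef1* alone, 13 of both and 50 of neither. The part that reads from *Ipcef1* have in the *Oprm1* counts was not tested.

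**Figure D2:**
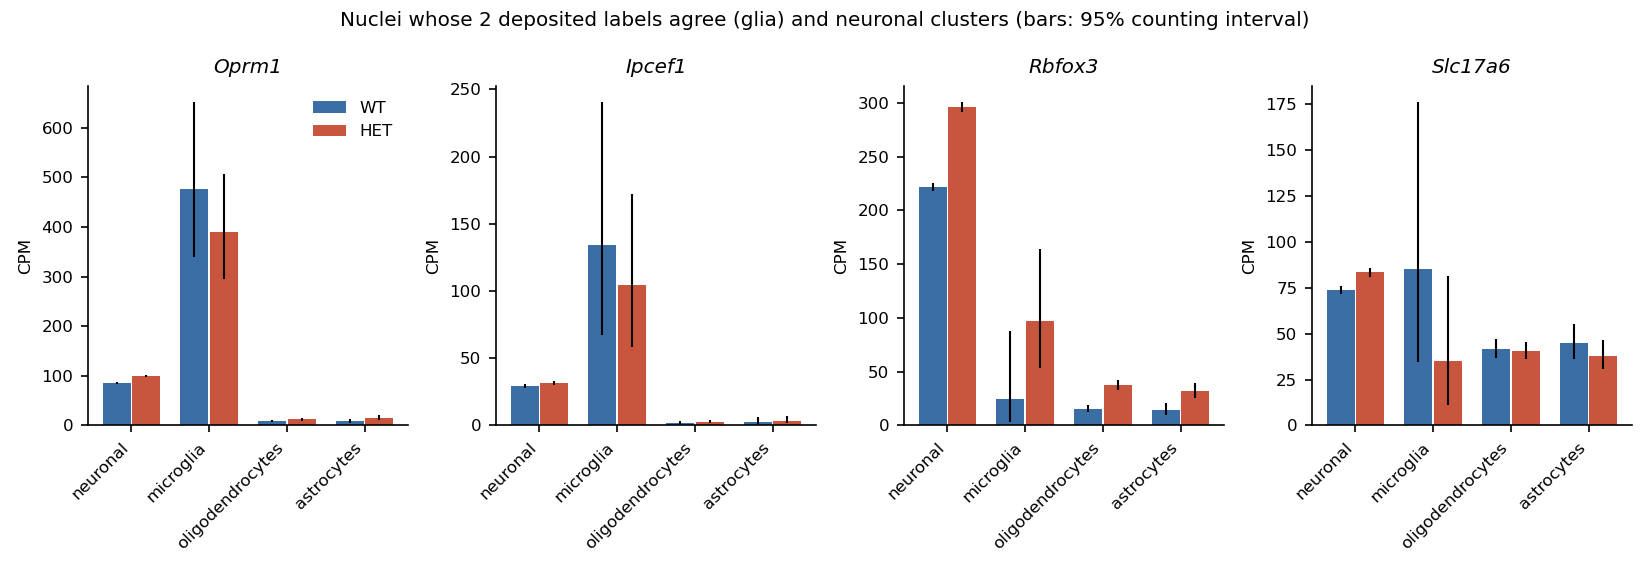
Level (CPM, y axis) of *Oprm1*, its overlapping neighbour *Ipcef1*, and the neuronal genes *Rbfox3* and *Slc17a6* in neuronal clusters and in microglia, oligodendrocytes and astrocytes by both labels, for WT and HET with exact 95% Poisson bars. *Oprm1* was 476 CPM in WT and 390.3 in HET microglia, above its level in neuronal clusters (85.8 and 99.6), while *Rbfox3* was lower in microglia (24.4 and 97.6) than in neuronal clusters (222 and 296). *Slc17a6* was 85.5 CPM in WT and 34.8 in HET microglia, from 7 and 5 UMIs, against 73.6 and 83.3 in neuronal clusters.

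*Oprd1* was concentrated in neuron.4, a cluster with the glutamate transporter gene *Slc17a7* among its leading genes. Its level there was 66.2 CPM in WT and 53.5 in HET, and 52.8% of the nuclei had a UMI. The cluster held 21.7% of all *Oprd1* UMIs in 453 nuclei. Next came neuron.3 at 23.1 CPM in WT and 28.2 in HET, then neuron.1 at 14.3 and 13.1 and neuron.2 at 8.62 and 8.06. The intervals of neuron.4, neuron.3 and neuron.1 did not overlap. In oligodendrocytes by both labels *Oprd1* was 1.47 CPM. Within neuron.3, subcluster 27 stood at 35.2 CPM over both libraries, but 46 of its 47 UMIs came from HET, which held 100 of its 114 nuclei.

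*Oprk1* was highest in neuron.7, the cluster that carries the serotonergic genes *Tph2* (1298 CPM) and *Slc6a4* (709 CPM). The level was 25.6 CPM in WT and 7.73 in HET, from 13 and 3 UMIs, so the libraries are far apart on few counts, and over both libraries its interval (10.2 to 29.0 CPM) overlapped that of neuron.1. In neuron.1, which held 87.2% of all *Oprk1* UMIs, it was 11.3 CPM in WT and 9.10 in HET. Levels in neuron.3 and neuron.4 were 1.54 and 2.23 CPM over both libraries, similar to the 2.27 CPM of oligodendrocytes by both labels. *Oprl1* was at 19.2 CPM in WT and 24.2 in HET in neuron.2, 17.3 and 18.03 in neuron.1, 12.1 in each library in neuron.3, and 9.38 and 12.1 in neuron.4. Over both libraries the counting intervals of neuron.2 and neuron.1 overlapped, and so did those of neuron.3 and neuron.4, while neuron.2 (17.3 to 25.1 CPM) lay above neuron.3 (9.32 to 15.5) and neuron.4 (8.98 to 14.1). It was 7.34 CPM in oligodendrocytes and 5.26 in astrocytes by both labels.

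*Tacr1* was highest in neuron.8, a small cluster of 44 WT and 9 HET nuclei that carries the acetylcholine synthesis and choline transport genes *Chat* (158 CPM) and *Slc5a7* (243 CPM). Its level was 59.2 CPM in WT and 62.8 in HET, and 58.5% of the nuclei had a UMI at a median of 27192 UMIs. Thinned to 1000 UMIs the share was 5.19%, against 2.13% in neuron.1. In neuron.1 *Tacr1* was 18.9 CPM in WT and 25.2 in HET, and within it subclusters 0, 10 and 5 led at 31.1, 29.1 and 23.7 CPM over both libraries. *Tacr3* was 23.6 CPM in WT and 26.7 in HET in neuron.2, 7.56 and 10.7 in neuron.1, and at 0.19 to 1.39 CPM in neuron.3, neuron.4, neuron.5 and neuron.7 over both libraries. Within neuron.2 it was carried by subcluster 12, led by *Arhgap6*, *Ebf2* and the neuropeptide gene *Nmu*, at 46.4 CPM in WT and 57.2 in HET. There 14.2% of the nuclei had a UMI, and *Tac2*, which encodes its ligand neurokinin B, stood at 76.6 CPM in WT and 58.3 in HET, against 7.34 and 2.80 over all neuronal clusters.

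How well the pattern over subclusters repeated between the libraries was described by Pearson's r of log2(CPM + 1) over the 28 subclusters with at least 30 nuclei in each. It was 0.81 for *Oprm1*, 0.73 for *Tacr3*, 0.58 for *Oprd1*, 0.53 for *Tacr1*, 0.45 for *Oprk1* and 0.32 for *Oprl1*. Points share the library and differ in depth, so r is given with no p. Between receptors, over all 34 subclusters, r ran from 0.10 for *Oprd1* with *Oprk1* to 0.57 for *Oprk1* with *Tacr1*. The gene most like *Oprm1* was its overlapping neighbour *Ipcef1* (r = 0.95), followed by *4933406I18Rik* (0.82), *Pde3b* (0.81), *Rbfox3* (0.81) and *4930563I02Rik* (0.79). The nearest to *Oprd1* were *Focad* (0.82), *Gm13067*, *Ttc21b*, *Il1rapl2* and *Gm17188* (0.77), and to *Oprk1* they were *Zfp92* (0.82), *Gm42456*, *Npsr1*, *Poglut1* and *Kcna4* (0.76). *Oprl1* lay nearest to *Cx3cl1* (0.84), *Atp13a2*, *Scn2b*, *Gpr135* and *Galnt17* (0.82), *Tacr1* to *2410018L13Rik* (0.80), *2610042L04Rik*, *Trim71*, *Thpo* and *Gm40437* (0.78), and *Tacr3* to *Ltk* (0.70), *Skor2*, *Tmem26*, *Tmem130* and *Zcchc12* (0.68). These lists were not stable: with the profile taken from WT or HET alone, at most 2 of the 5 genes stayed for any receptor.

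Levels were next compared between glutamatergic and inhibitory nuclei, taken as neuronal nuclei that had 5 or more UMIs of the marker genes of one class and no less than 5 times the UMIs of the opposite class. This left 134 glutamatergic and 1107 inhibitory nuclei in WT, and 225 and 785 in HET. *Oprd1* was higher in glutamatergic nuclei in both libraries, at 26.9 against 18.6 CPM in WT and 28.8 against 16.6 in HET (log2 ratios 0.53 and 0.80). *Oprm1* was lower in them, at 46.2 against 84.0 CPM in WT and 75.5 against 87.6 in HET. *Tacr3* gave no common direction, with log2 ratios of 1.06 in WT and -0.29 in HET. The classes differed in makeup, since neuron.4 supplied 31 of the WT and 56 of the HET glutamatergic nuclei and neuron.1 supplied 1041 and 702 of the inhibitory ones. When nuclei were split by a single UMI of one class and none of the other, the *Oprm1* ratio was -0.20 in WT and 0.11 in HET, and *Tacr1* was higher in glutamatergic nuclei by 0.61 and 0.71. Under this split the *Oprd1* ratio was 0.096 in WT, with an interval that included 0 (-0.14 to 0.33), and 0.46 in HET (0.24 to 0.68).

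Some nuclei carried more than 1 receptor. In WT, 44.9% of the neuronal nuclei with a *Tacr1* UMI also had an *Oprm1* UMI, against 38.8% of the other neuronal nuclei matched for subcluster and depth. In HET the shares were 46.5% and 43.9%. *Tacr1* was found in 16.4% of WT nuclei with *Oprk1*, against 12.6% of the matched rest, and in 16.3% and 15.3% in HET. In WT, 38.9% of the nuclei with *Oprl1* had *Oprm1*, against 40.9% of the matched rest. Counting each receptor with each other one, 21 of 30 shares were above the matched share in WT and 26 of 30 in HET. Every pair enters in both directions with the same doubly positive nuclei, so the 30 shares are not separate comparisons. No share for pairs of other genes is set beside them. The counts are sparse, and the shares are given as a description.

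To compare the genotypes, each receptor was measured over all nuclei and within neuronal clusters. *Oprm1* had 5264 UMIs in WT and 5629 in HET, or 74.9 and 85.1 CPM, a log2 ratio of HET over WT of 0.18 (0.13 to 0.24). *Oprd1* was 13.2 CPM in WT and 14.5 in HET (0.13, -0.0017 to 0.26). *Oprk1* was the member with the largest difference, at 8.96 CPM in WT from 630 UMIs and 6.38 in HET from 422 UMIs, a log2 ratio of -0.49 (-0.67 to -0.31). *Oprl1* was 15.4 CPM in each library, and the interval of its log2 ratio ran from -0.13 to 0.12. *Tacr1* was 15.5 CPM in WT and 17.4 in HET (0.17, 0.05 to 0.29), and *Tacr3* was 6.74 and 7.83 (0.22, 0.03 to 0.40). *Ipcef1* stood at 25.5 and 26.6 CPM, a log2 ratio of 0.06.

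Within neuronal clusters the ratios were alike, at 0.22 for *Oprm1* (85.8 CPM in WT, 99.6 in HET), 0.19 for *Oprd1* (15.4 and 17.5), -0.44 for *Oprk1* (10.2 and 7.49), 0.05 for *Oprl1* (16.7 and 17.3), 0.23 for *Tacr1* (17.9 and 21.1) and 0.26 for *Tacr3* (7.73 and 9.27). Past a fold of 1.25, none of the 6 was higher in HET, against 12.9% of the 16347 genes with at least 200 UMIs over all nuclei, and 1, *Oprk1*, was lower, against 28.8%. In neuronal clusters the counts were again 0 and 1, against 12.1% and 27.3% of 15352 genes. The median of all genes was -0.10 over all nuclei, and that of the 6 receptors 0.15. Relative to the median gene the ratios were 0.29 for *Oprm1*, 0.23 for *Oprd1*, -0.39 for *Oprk1*, 0.10 for *Oprl1*, 0.28 for *Tacr1* and 0.32 for *Tacr3*, so *Oprl1* changed sign with the scaling.

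**Figure D3:**
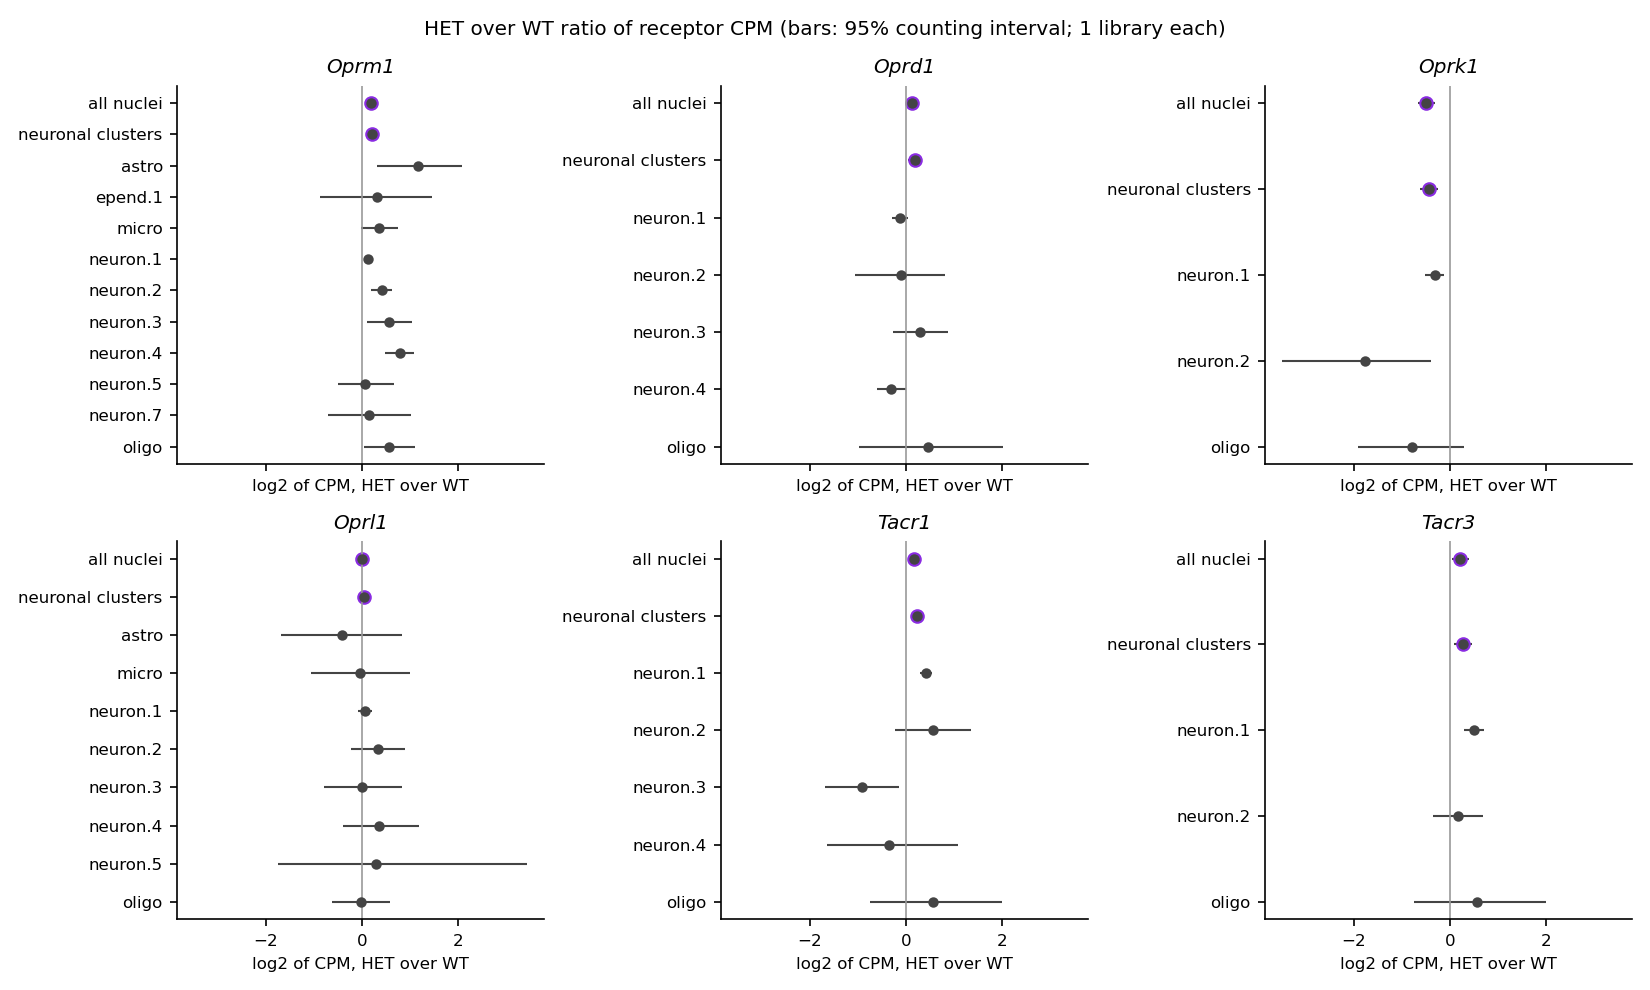
Log2 ratio of CPM, HET over WT (x axis), of each receptor over all nuclei, over neuronal clusters and in each cluster with at least 30 nuclei per library and 20 UMIs of the gene, with exact 95% counting intervals. *Oprm1* lay above 0 in 10 of 10 clusters, with 6 intervals clear of 0, and *Oprk1* below 0 in 3 of 3, with 2 clear of 0. *Tacr1* lay at 0.42 in neuron.1 and at -0.92 in neuron.3.

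Within clusters *Oprm1* was higher in HET in 10 of 10, and 6 of the intervals lay above 0. It was 57.3 CPM in WT and 98.6 in HET in neuron.4 (0.78, 0.49 to 1.09) and 30.97 and 45.6 in neuron.3 (0.56, 0.10 to 1.04). The ratio was also above 0 in astrocytes (7.57 and 16.9 CPM, 1.16) and oligodendrocytes (8.21 and 12.2 CPM, 0.57), where *Rbfox3* in non-neuronal nuclei by both labels was also lower in WT, at 15.5 CPM against 36.9 in HET. By subcluster *Oprm1* was higher in 15 of 22 and lower in 7. In subclusters 0 and 1 of neuron.1 the ratios were -0.07 and -0.14. With equal subcluster weights in both libraries the *Oprm1* ratio over all nuclei was 0.12, and 0.08 in neuronal clusters.

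*Oprk1* was lower in HET in all 3 clusters with enough UMIs. It was 11.3 CPM in WT and 9.10 in HET in neuron.1 (-0.32, -0.51 to -0.12) and 8.62 and 2.52 in neuron.2, from 31 and 5 UMIs (-1.78, -3.50 to -0.40). In oligodendrocytes it was 3.08 CPM in WT and 1.77 in HET, from 18 and 14 UMIs, and the interval included 0 (-0.80, -1.91 to 0.29). In 6 of 7 subclusters *Oprk1* was lower in HET, and 2 of the intervals lay below 0. It was 10.2 CPM in WT and 5.21 in HET in subcluster 1 (-0.97, -1.53 to -0.44), and in subcluster 5 it was 9.44 in WT and 10.5 in HET. Across the alternatives tried the ratio over all nuclei ran from -0.60 to -0.35.

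The direction of *Oprd1* differed between clusters and changed when clusters were weighted equally. It was lower in HET in 3 clusters, among them neuron.4 (-0.31, -0.61 to 0.00) and neuron.1 (-0.12), and higher in 2, neuron.3 (0.29) and oligodendrocytes (0.46). By subcluster it was higher in 7 of 10. The neuron.4 cluster supplied 339 nuclei to HET against 114 to WT. With equal cluster weights the ratio over all nuclei was -0.17 in place of 0.13, and with equal subcluster weights 0.04. *Oprl1* was higher in 4 clusters and lower in 4, with no interval clear of 0.

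*Tacr1* was higher in HET in neuron.1, at 25.2 against 18.9 CPM (0.42, 0.29 to 0.55), with 1025 and 912 UMIs. Its subclusters 0, 5 and 10 gave 0.29, 0.43 and 0.76, with intervals above 0. Subclusters 1, 3 and 9 of neuron.1 gave 0.11, 0.23 and -0.89, with intervals that included 0. Of the 10 subclusters compared over all clusters, *Tacr1* was higher in HET in 6 and lower in 4. In neuron.3 it was 17.6 CPM in WT and 9.30 in HET, from 29 and 33 UMIs. *Tacr3* was likewise higher in HET in neuron.1, at 10.7 against 7.56 CPM (0.50, 0.30 to 0.71), and in subcluster 0 at 14.6 against 9.17 (0.67). In neuron.2, where it was highest, the ratio was 0.18 (-0.35 to 0.69). With equal cluster weights the ratios over all nuclei were 0.37 for *Tacr1* and 0.47 for *Tacr3*. Between the genotypes the same cluster can hold different subclusters: subcluster 1 of neuron.1, where *Tacr3* was 5.75 CPM in WT and 4.77 in HET, had 1714 WT and 511 HET nuclei.

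The log2 ratio of HET over WT rose with gene length over the whole table. Among genes under 10 kb the median was -0.36, and among those over 240 kb it was 0.13. Set beside genes of their own length class, *Oprm1* lay at the 62.7th percentile, *Tacr1* at the 65.4th, *Oprl1* at the 75.9th, *Oprd1* at the 76.7th and *Tacr3* at the 79.4th, and *Oprk1*, among genes of 10 to 30 kb with a median of -0.18, at the 16.8th. The nuclei also differed in ribosomal protein transcripts, with medians of 0.696% of UMIs in WT and 0.407% in HET. The part of gene length in the receptor ratios was not tested further.

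**Figure D4:**
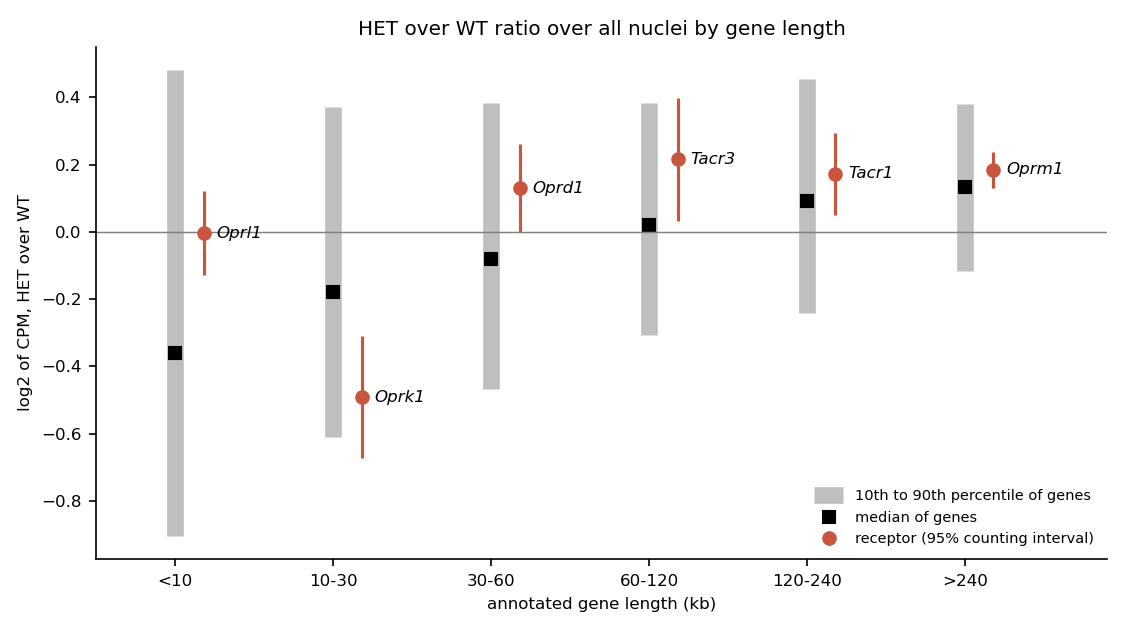
Log2 ratio of CPM, HET over WT, over all nuclei (y axis) in 6 classes of gene length (kb, evenly spaced on the x axis). Each class shows the median and the central 80% of all genes, and the 6 receptors are labelled points beside their class. The median rose from -0.36 in the shortest class to 0.13 in the longest. *Oprk1* lay below the median of its class, and the other 5 lay above theirs.

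Most precursors of the peptides that act on these receptors were lower in HET as counted. All 4 opioid precursor genes and 2 of the 3 tachykinin precursor genes were lower by more than 1.25-fold, against 28.8% of all genes with at least 200 UMIs. *Pdyn* and *Tac4* had fewer than 200 UMIs over both libraries, so that share is not like for like. The median log2 ratio was -0.51 for the opioid precursors and -0.69 for the tachykinin precursors, against -0.10 for all genes. *Pomc*, the precursor of β-endorphin, was 6.98 CPM in WT and 1.99 in HET (-1.81), *Pnoc*, which encodes nociceptin, 9.69 and 6.56 (-0.56), and *Penk*, which encodes the enkephalins, 40.5 and 31.6 (-0.36). *Pdyn*, the dynorphin precursor, had 86 and 59 UMIs, and its interval included 0 (-0.46, -0.96 to 0.04). The substance P precursor *Tac1* was 24.3 and 15.04 CPM (-0.69), *Tac2* 8.29 and 2.99 (-1.47), and *Tac4* 1.44 and 1.48 (0.04). Non-neuronal nuclei by both labels held these transcripts at similar levels, at 46.4 and 40.8 CPM for *Penk*, 26.6 and 16.2 for *Tac1*, 13.8 and 4.05 for *Tac2* and 7.99 and 2.58 for *Pomc* in WT and HET. The source of these UMIs was not tested. In subcluster 0 of neuron.1, *Pomc* was 19.3 CPM in WT and 2.24 in HET. The remaining tachykinin receptor gene, *Tacr2*, had 0 UMIs in WT and 2 in HET.

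Genes downstream of the receptors differed in both directions. The counts in these lists stand against 12.9% of all genes with at least 200 UMIs higher and 28.8% lower in HET past 1.25-fold. The lists also count genes with fewer UMIs, such as *Kcnj5* and *Kcnk5* among the higher and *Anpep* and *Plcb2* among the lower. The shares are therefore not like for like, and nothing particular to a list is drawn from them. Of 18 Gi/o and potassium channel effectors, 4 were higher and 1 lower in HET past 1.25-fold, with a median of 0.02. *Kcnj6*, a GIRK channel subunit, was 77.1 CPM in WT and 109.7 in HET (0.51), *Adcy5*, an adenylyl cyclase, 0.50, the calcium channel gene *Cacna1a* -0.29 and the G protein gene *Gnai2* -0.61. Of 15 Gq and phospholipase C effectors, 1 was higher and 4 lower (median 0.09), with *Prkce*, a protein kinase C gene, at 0.28, the inositol trisphosphate receptor gene *Itpr3* at -0.61 and *Gna11* at -0.73. Of 14 measured genes of receptor desensitization, 1 was higher and 2 lower (median 0.04), from *Rgs9* at 0.35 and *Grk3* at 0.29 to *Rgs19* at -0.38 and *Rgs4* at -0.81. Of 10 peptide processing and breakdown enzymes, 0 were higher and 4 were lower (median -0.00034), from the peptidase gene *Enpep* at 0.27 and the carboxypeptidase gene *Cpe* at 0.22 to *Ece2* at -0.41 and *Dpp3* at -0.64. Of 20 genes that mark breathing circuit neurons, 5 were higher and 8 lower (median -0.22). Among them *Tph2*, for serotonin synthesis, stood at 0.82 and *Th*, for catecholamine synthesis, at 0.63, and the peptide gene *Grp* at -1.03. Other markers of the same cell types in this list differed, with the serotonergic gene *Slc6a4* at -0.52 (-0.75 to -0.30) and the catecholaminergic gene *Dbh* at 0.09 (-0.39 to 0.57).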

How the data were processed

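Nuclei were isolated from flash-frozen brainstem and sequenced as 10x 3′ libraries with reads of 150 bases, 1 per genotype. The authors aligned reads to mm10 and counted UMIs with Cell Ranger, in a version not given in the sources used here, then removed nuclei with few genes or high mitochondrial content, some genes and doublets, and clustered with Seurat 4.1. The deposited values are raw UMI counts per gene and nucleus. The deposited metadata give cluster, subcluster at resolution 0.8, a second cell type label, percent of ribosomal transcripts and a doublet score.

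Counts were summed over nuclei per library and group and divided by the summed UMIs (CPM), with exact Poisson intervals, exact binomial intervals for shares and exact conditional intervals for ratios, at 95% confidence. Clusters were compared between libraries with at least 30 nuclei in each and 20 UMIs of the gene. Genes counted over the whole table had at least 200 UMIs and were called past a fold of 1.25. Thinned shares are the expectation at 1000 UMIs per nucleus. Positions and coding sequence come from GENCODE vM21 (GRCm38). Named genes are the receptors, the precursors and *Tacr2*, the genes with the largest and the smallest ratio (2 each) of every other list, and the 5 genes with the highest r with each receptor. Some genes that this rule picks are not reported here. Other genes are named as cell type markers, as leading genes of a subcluster or as overlapping neighbours. The members, lists and tests were chosen with earlier results of these data known. In simulated counts with 200 of 25556 genes changed 2-fold, the direction was recovered for 100% and the interval held the true ratio for 93.5%. The counts were Poisson draws with no variation between animals or nuclei, and the changed genes had at least 200 UMIs. The simulation therefore checks the interval for counting error alone, and not ratios as small as those of most receptors. Calculations used scipy 1.17.1, numpy 2.4.6 and pandas 2.3.3 in Python 3.11.15, with plots in matplotlib 3.10.9.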

Additional observations from a re-analysis of the deposited data

Results flagged for a closer look

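*Tacr1* was set apart by opposite directions in a pair of neuronal clusters. The log2 ratio of HET over WT was 0.42 (0.29 to 0.55) in neuron.1, from 912 WT and 1025 HET UMIs, and -0.92 (-1.69 to -0.15) in neuron.3, from 29 WT and 33 HET UMIs. In subcluster 13, with 349 of its 391 nuclei in neuron.3, the *Tacr1* ratio was -0.42, and its interval (-1.15 to 0.32) included 0. With 1 library per genotype the difference between the clusters was not tested.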

How the results depend on the processing

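No paired analysis was possible because there was 1 library per genotype. The intervals hold counting error only, and depth limits the receptors with few UMIs per cluster. Of the alternatives to the main values, 90 stayed within the counting interval, 27 moved beyond it and 1 that had been past 1.25-fold changed sign. Of those for gene lists and nearest genes, 19 held and 15 moved. With the median gene set to 0, *Oprm1* gave 0.29 over all nuclei and 0.31 in neuronal clusters. Equal cluster weights gave -0.17 and -0.18 for *Oprd1*, 0.37 and 0.38 for *Tacr1* and 0.47 and 0.48 for *Tacr3*. Equal subcluster weights, chosen after seeing the data, gave 0.12 and 0.078 for *Oprm1*, and -0.010 for *Oprd1* in neuronal clusters. For neuronal over non-neuronal nuclei, limiting the latter to nuclei by both labels gave 2.79 in WT and 2.45 in HET for *Oprm1* and 3.94 in WT for *Oprd1*. Leaving out the microglia cluster, also chosen later, gave *Oprm1* 3.26 and 2.73, and thinning gave 2.31 in HET. Shares of neuronal nuclei thinned to 1000 UMIs fell to 9.41% for *Oprm1*, 1.34% for *Oprd1*, 0.984% for *Oprk1*, 1.82% for *Oprl1*, 1.84% for *Tacr1* and 0.915% for *Tacr3*. The split by a single UMI gave glutamatergic over inhibitory ratios of -0.20 in WT and 0.11 in HET for *Oprm1*, 0.096 in WT for *Oprd1* and 0.40 in WT and 0.14 in HET for *Tacr3*, and turned *Oprl1* in WT from -0.41 to 0.088. Signs thus changed for *Oprm1* in HET, *Tacr3* in HET and *Oprl1* in WT here, for *Oprd1* under equal weights, and for *Oprl1* over all nuclei (0.10 with the median gene set to 0, 0.082 with equal cluster weights and 0.11 with equal subcluster weights). The causes were not tested. The *Oprk1* ratio stayed below 0 under the alternatives over all nuclei and in neuronal clusters.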
